A study of Mus musculus with 6 samples.

Results

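The genes described here encode the proton pump of the lysosome, the proteases and other hydrolases that work in its acid interior, and membrane proteins, cofactors and a regulator of the organelle. They were chosen by name, as 44 genes, and 42 of them were measured by a probe set with a single gene symbol among 22180 genes tested in all. Glb1, encoding beta-galactosidase, had a probe set only in common with another gene, and Atp6v0c, encoding the proton-carrying ring subunit, was not in the array annotation. Neither was analysed here.

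Lysosomes break down proteins, lipids and sugars delivered by endocytosis and autophagy. Their hydrolases need an acid pH, which is kept by the vacuolar ATPase, a rotary pump with a catalytic V1 sector in the cytosol and a proton-conducting V0 sector in the membrane. In liver, hepatocytes and Kupffer cells, the resident macrophages, both hold many lysosomes, and the transcription factor TFEB can raise many of these genes together through the promoter element that it binds.

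Expression was measured in liver tissue of male C57BL/6N mice aged 2 months, on 1 array per sample and in 3 samples per group. Mice of the knockout group, labelled cGK1-KO, lacked the cGMP-dependent kinase cGK1, the product of Prkg1. The series description adds that they were a smooth muscle rescue. The control group is labelled wild type, and no other allele or agent is given for either group. The sources used here name neither the promoter of the rescue nor whether each sample was a separate animal. If samples shared an animal, the p-values describe technical spread alone. Values are log2 expression after RMA, differences are knockout minus control, errors are standard errors of the limma model unless named SD, and n = 3 per group throughout.

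The arrays had medians between 3.11 and 3.16 and correlated over genes at 0.989 to 0.990 within the control group, 0.978 to 0.983 within the knockout group and 0.978 to 0.983 between groups. For knockout replicate 3, r was 0.981 to 0.983 with the controls and lower, 0.978 and 0.979, with knockout replicates 1 and 2. The hepatocyte product Alb lay at 13.3 to 13.4 on all 6 arrays. Prkg1 measured 3.31, 3.04 and 3.22 in the knockout and 3.32, 2.97 and 2.95 in the control arrays, near the median of all probe sets (3.11), so that its signal was too dim to check the genotype. Of all 22180 genes, 0 (0%) passed a limma adjusted p of 0.05 after Benjamini-Hochberg adjustment, while 2334 lay at an unadjusted p under 0.05.

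Among the 42 measured members, 0 passed the adjusted threshold. At an unadjusted p under 0.05 there were 7 members (16.7%), against 10.5% of all genes. They were Atp6v0d2, Ctss, Lgmn, Ctsc and Npc2 as higher in the knockout (5 members, where 5.06% of all genes were higher) and Atp6v0b and Mcoln1 as lower (2 members, where 5.46% were lower). The groups did not overlap in 12 members (28.6%), against 16.7% of all genes. In 7 of these the knockout arrays were all higher, against 7.61% of all genes, and in 5 all lower, against 9.14%. The median difference of the 42 members was 0.02, and that of all genes was 0.0011. Without control replicate 2 the count at an unadjusted p under 0.05 was 4 members and 1543 genes.

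**Figure D1:**
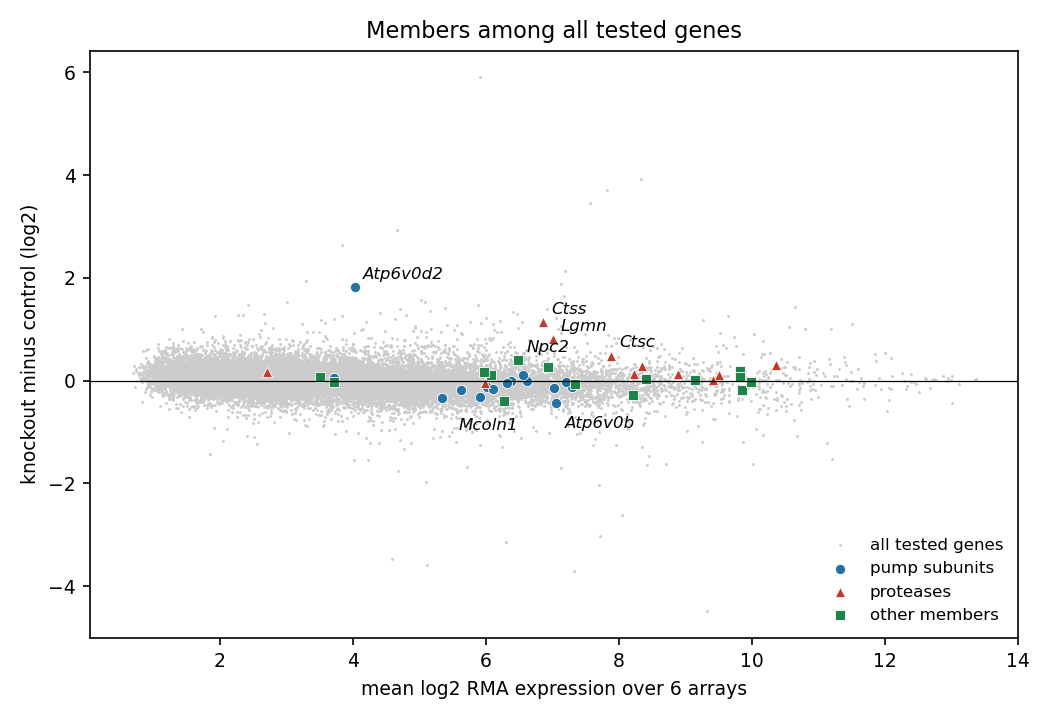
Difference between knockout and control (log2, vertical axis) against mean log2 RMA expression over the 6 arrays (horizontal axis) for all 22180 genes in grey and the 42 members in colour, 1 point per gene, with the 7 members at an unadjusted p under 0.05 named. Atp6v0d2, at a difference of 1.82, lies apart from the other pump subunits, which lie between -0.44 and 0.10.

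The promoter sequences bear on whether members share the element of TFEB. RefSeq promoters of GRCm38.p6 were found for 36 of the 44 genes and the 250 bases before each annotated start were searched. There was no entry for Atp6v0d2, Atp6v1b2, Atp6v1c1, Atp6v1g1, Atp6v1h, Ctsb, Ctsh and Npc1. The centre of the element, TCACGTGA, was found in 5 of the 36 genes (13.9%), against 0.907% of 27025 genes with a promoter. The shorter E-box CACGTG, which lies inside it, was found in 12 (33.3%), against 6.86%. Both motifs read the same on either strand.

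Shown are windows of 3 genes with the longer motif and of Lamp1 and Atp6v0b, which hold several copies of the shorter one. Capitals mark the motif. Mcoln1 and Atp6v0b are the members at an unadjusted p under 0.05 on the lower side, and Ctsd, Gla and Lamp1 encode classical lysosomal proteins.
Mcoln1, chr8:3500418-3500510, plus strand: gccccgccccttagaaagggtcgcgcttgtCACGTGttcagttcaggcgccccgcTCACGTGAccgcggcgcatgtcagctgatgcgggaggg
Atp6v0b, chr4:117887334-117887395, minus strand: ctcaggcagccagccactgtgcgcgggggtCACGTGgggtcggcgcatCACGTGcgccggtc
Lamp1, chr8:13159070-13159160, plus strand: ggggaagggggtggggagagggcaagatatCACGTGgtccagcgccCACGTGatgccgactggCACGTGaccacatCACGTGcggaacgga
Ctsd, chr7:142387889-142387956, minus strand: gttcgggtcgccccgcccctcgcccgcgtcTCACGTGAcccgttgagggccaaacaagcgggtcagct
Gla, chrX:134601163-134601255, minus strand: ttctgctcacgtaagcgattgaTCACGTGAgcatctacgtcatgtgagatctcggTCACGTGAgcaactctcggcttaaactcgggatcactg

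In Lamp1 the 4 copies lie within the last 61 bases before the start, and in Mcoln1 the longer motif begins 46 bases before it. Of the 5 genes with the longer motif, Mcoln1 differed by -0.39, Atp6v1a by -0.04, Gla by -0.03, Ctsd by 0.14 and Ctsa by 0.28. Their median was -0.03, and that of the 29 measured members with a promoter but without the longer motif was 0.01. The 11 measured members with the shorter motif ran from -0.44 in Atp6v0b to 0.81 in Lgmn, with 5 positive and a median of -0.03. The 23 with a promoter but without the shorter motif had a median of 0.01. In Atp6v1a, Ctsa, Ctsl and Lgmn the motif lies inside a longer gene model, and those windows are not printed.

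Atp6v0d2 lay apart from the rest of the pump, although its difference did not pass the adjusted threshold. It encodes the d2 form of the subunit that couples the rotor to the V0 sector, which is known from osteoclasts, kidney and macrophages, while Atp6v0d1 encodes the widely expressed d1 form. Atp6v0d2 measured 4.95, 4.89 and 4.98 in knockout replicates 1 to 3 and 3.73, 3.11 and 2.50 in the controls, with means of 4.94 ± 0.05 and 3.11 ± 0.61 (SD). The knockout values lay close together and all above the controls, which spread over more than a log2 unit. The difference was 1.82 ± 0.26 (3.54-fold higher, 95% confidence interval 1.23 to 2.42, limma adjusted p = 0.0888, unadjusted p = 5.96e-05). The control mean was about equal to the median of all probe sets (3.11), which leaves the size of the fold uncertain.

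Atp6v0d1 measured 7.38, 7.25 and 7.09 in the knockout and 7.31, 7.31 and 7.45 in the control arrays, and the groups overlapped. Its difference was -0.12 ± 0.13 (confidence interval -0.42 to 0.18, limma adjusted p = 0.793). The log2 ratio of Atp6v0d2 to Atp6v0d1 within an array was -2.43, -2.37 and -2.11 in the knockout and -3.59, -4.20 and -4.95 in the control arrays. It was therefore higher in each knockout array than in any control array, by 1.94 on average. An exact 2-sided permutation test over the 6 arrays gave p = 0.1, which any pair of groups without overlap gives at 3 against 3 arrays, so the test adds nothing to that order.

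The other 14 measured pump genes had a median difference of -0.12. Of these, 12 were negative and 2 positive, and after a further quantile normalization 8 were negative with a median of -0.051. Their differences ran from -0.44 to 0.10, and the highest upper bound of any of their confidence intervals was 0.46, below the lower bound of 1.23 for Atp6v0d2. At an unadjusted p under 0.05 there was 1 of 14 (7.14%, below the 10.5% of all genes).

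**Figure D2:**
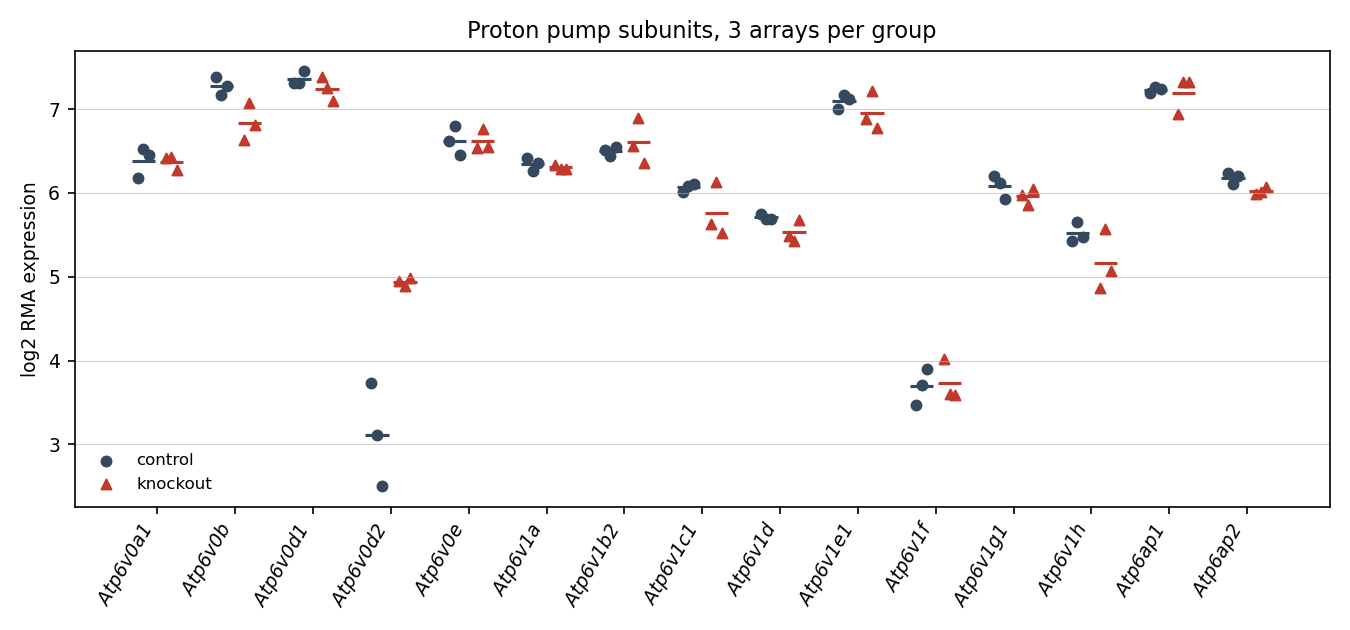
Log2 RMA expression (vertical axis) of the 15 measured pump genes, with 1 point per array, dark circles for the 3 control and red triangles for the 3 knockout arrays, and bars at the group means. Only for Atp6v0d2 do the knockout arrays (4.89 to 4.98) all lie above the controls (2.50 to 3.73), and for Atp6v0b, Atp6v1d and Atp6ap2 they all lie below.

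In the membrane sector, Atp6v0b encodes a second proteolipid of the proton-carrying ring. It measured 6.63, 7.08 and 6.81 in the knockout and 7.39, 7.17 and 7.27 in the control arrays, so every knockout array lay below every control. The difference was -0.44 ± 0.15 (limma adjusted p = 0.374, unadjusted p = 0.0175), with -0.33 without knockout replicate 1. Atp6v0a1, for the large subunit that lines the proton path, and Atp6v0e differed by -0.01 each, and both turned positive after the further quantile normalization (0.054 and 0.047).

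In the catalytic sector 0 of 8 genes lay at an unadjusted p under 0.05 and the median difference was -0.13. The smallest p belonged to Atp6v1h, for a regulatory subunit of V1, at 4.87, 5.57 and 5.06 in the knockout and 5.43, 5.65 and 5.47 in the control arrays. Knockout replicates 1 and 3 lay below all controls there and replicate 2 among them, with a difference of -0.35 ± 0.19 (limma adjusted p = 0.544), which was -0.20 without knockout replicate 1 and -0.55 without replicate 2. For Atp6v1c1, whose subunit takes part in reversible assembly, replicates 1 and 3 (5.63 and 5.52) again lay below all controls (6.02 to 6.11) and replicate 2 (6.13) just above them, with a difference of -0.31 ± 0.17, -0.50 without replicate 2 and -0.19 without replicate 3. Atp6v1a and Atp6v1b2, which encode the subunits that bind and split ATP, differed by -0.04 and 0.10. For Atp6v1b2 a second, dimmer probe set gave -0.15, and for Atp6v1g1 (-0.12) dimmer probe sets gave 0.20 and 0.22.

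The accessory proteins Atp6ap1, which aids assembly of the pump, and Atp6ap2, the (pro)renin receptor, differed by -0.03 and -0.15. Atp6ap2 measured 5.99, 6.01 and 6.07 in the knockout and 6.23, 6.10 and 6.20 in the control arrays, without overlap, at a difference of -0.15 ± 0.12 and a limma adjusted p of 0.690.

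**Figure D3:**
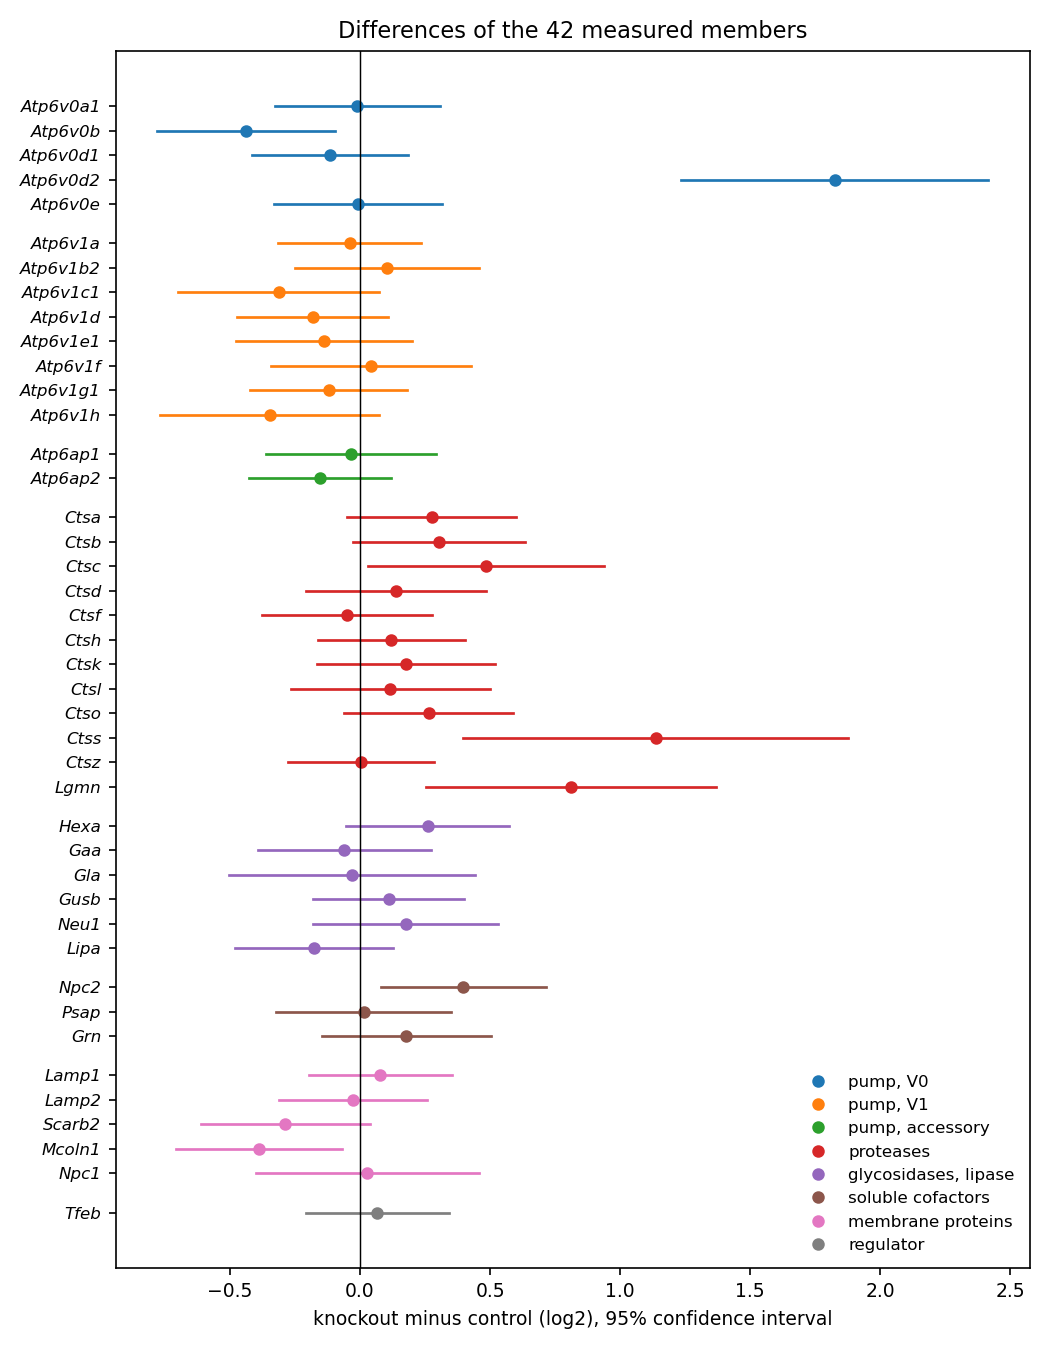
Difference between knockout and control on the log2 scale (points) with its 95% confidence interval (lines) for each of the 42 measured members, coloured by role. Intervals exclude 0 for Atp6v0d2, Ctss, Lgmn, Ctsc and Npc2 on the higher side and for Atp6v0b and Mcoln1 on the lower side, before any adjustment for the number of genes.

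The proteases lay mostly higher in the knockout. Of 12 genes, 11 had positive differences, where 50.2% of all genes did, and the median was 0.22. Knockout replicate 2 was the highest knockout array in 11 of the 12 proteases and in 32 of the 42 members, and the median protease lay above its control mean by 0.136, 0.415 and 0.124 in replicates 1 to 3. The same array was highest in 17 of 20 macrophage markers, whose part in the level of the proteases was not tested. The median difference stayed between 0.16 and 0.27 when any array was left out. At an unadjusted p under 0.05 there were 3 (25%, against 5.06% of all genes that were higher), namely Ctss, Lgmn and Ctsc, and 0 passed the adjusted threshold.

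Ctss encodes cathepsin S, a cysteine protease of antigen-presenting cells that trims the invariant chain of MHC class II. It measured 7.22, 8.26 and 6.80 in the knockout and 6.60, 6.26 and 6.01 in the control arrays. All knockout arrays lay above the controls, replicate 2 by far the most. The difference was 1.14 ± 0.33 (2.20-fold higher, limma adjusted p = 0.313), and without knockout replicate 2 it was 0.72.

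Lgmn encodes legumain, an asparaginyl endopeptidase that processes cathepsins. It measured 7.13, 8.06 and 7.03 in the knockout and 6.59, 6.55 and 6.66 in the control arrays. Again replicate 2 was highest, and the groups did not overlap. The difference was 0.81 ± 0.25 (1.75-fold higher, limma adjusted p = 0.336), and 0.48 without knockout replicate 2.

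Ctsc encodes cathepsin C, which activates serine proteases of leukocyte granules. It measured 7.74, 8.43 and 8.20 in the knockout and 7.92, 7.55 and 7.44 in the control arrays, and knockout replicate 1 lay inside the control range. The difference was 0.48 ± 0.20 (limma adjusted p = 0.439), and 0.33 without knockout replicate 2. Its order among the knockout arrays differed from that of Ctss and Lgmn, since replicate 3 lay above replicate 1.

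The general endolysosomal cathepsins differed less. Ctsb, for a cysteine protease of most cells, measured 10.5, 10.7 and 10.3 in the knockout and 10.2, 10.2 and 10.3 in the control arrays, at a difference of 0.30 ± 0.15 and a limma adjusted p of 0.504. Ctsa, the protective protein of beta-galactosidase and neuraminidase, differed by 0.28 and Ctso by 0.26. Without knockout replicate 2 the differences were 0.19 for Ctsb and 0.14 for Ctso. The aspartic protease gene Ctsd (0.14), Ctsh (0.12) and Ctsl (0.12) lay near 0 within their errors of 0.12 to 0.17, and Ctsz (0.0026) and Ctsf (-0.05) turned sign under a rescaling. Ctsk, the collagen-degrading cathepsin of osteoclasts, differed by 0.18 but was dim, with a mean of 2.71 and no array above the median of all probe sets (3.11).

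**Figure D4:**
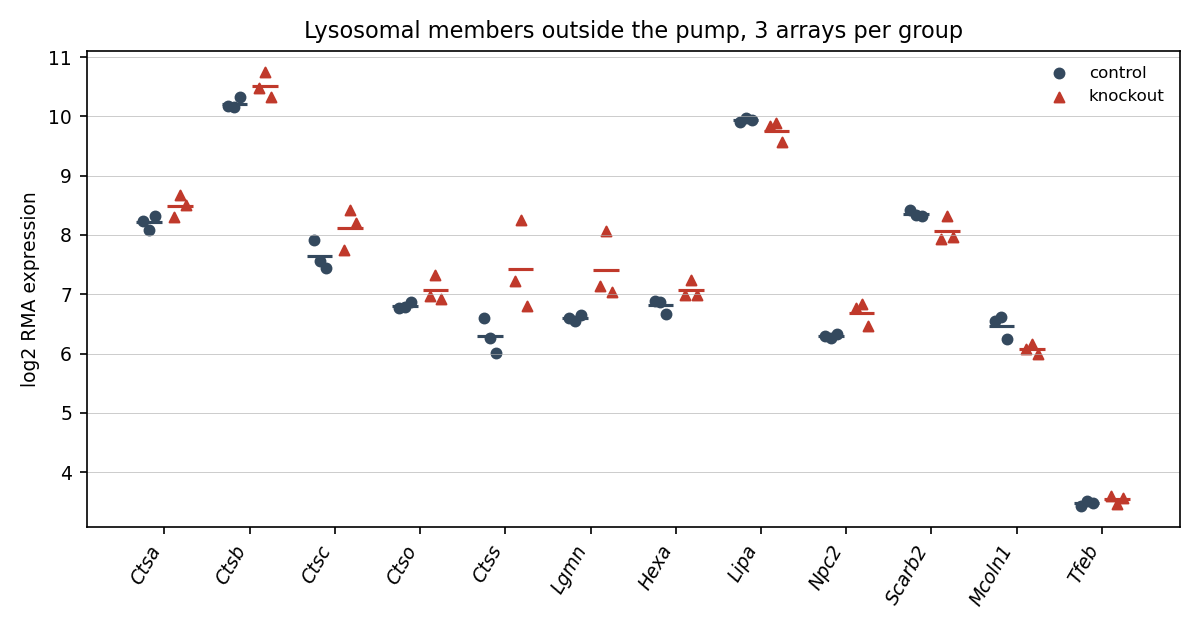
Log2 RMA expression (vertical axis) of 12 members outside the pump, with 1 point per array, dark circles for control and red triangles for knockout, and bars at the group means. In Ctss and Lgmn the highest knockout point is replicate 2, at 8.26 and 8.06, and Tfeb lies between 3.43 and 3.60 on all arrays.

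The glycosidases and the acid lipase showed no common direction, with 3 of 6 positive, a median of 0.04 and 0 at an unadjusted p under 0.05. Hexa, for the alpha subunit of beta-hexosaminidase, had the smallest p, at 6.99, 7.24 and 6.98 in the knockout and 6.89, 6.88 and 6.67 in the control arrays. The knockout values lay just above the controls, at a difference of 0.26 ± 0.14 (limma adjusted p = 0.542). The other members were Neu1, a sialidase gene (0.17), Gusb, for beta-glucuronidase (0.11), Gla, for alpha-galactosidase A (-0.03), Gaa, for acid alpha-glucosidase (-0.06), and Lipa, for lysosomal acid lipase (-0.18). Lipa was below the controls in every knockout array, at 9.83, 9.88 and 9.57 against 9.91 to 9.97, and its difference was -0.08 without knockout replicate 3.

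Npc2 encodes the soluble protein that hands cholesterol to Npc1 for export from the lysosome. It measured 6.77, 6.84 and 6.46 in the knockout and 6.29, 6.26 and 6.32 in the control arrays, without overlap. The difference was 0.40 ± 0.14 (1.32-fold higher, limma adjusted p = 0.385). Npc1 itself differed by 0.03 ± 0.19, and a second, dim probe set gave 0.365. Psap, the precursor of the saposins that help to degrade sphingolipids, differed by 0.01, and Grn, for progranulin, by 0.18.

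Mcoln1 encodes the calcium channel TRPML1, which releases calcium from the lysosome. It measured 6.08, 6.17 and 6.00 in the knockout and 6.55, 6.61 and 6.25 in the control arrays, so all knockout arrays lay below the controls. The difference was -0.39 ± 0.14 (limma adjusted p = 0.398). Scarb2, the receptor that carries glucocerebrosidase to lysosomes, was lower by a similar amount (-0.29 ± 0.14, limma adjusted p = 0.524), and in it knockout replicate 2 (8.32) lay at the lowest control (8.32). The main glycoproteins of the lysosomal membrane, Lamp1 and Lamp2, differed by 0.08 ± 0.12 and -0.03 ± 0.13.

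Tfeb measured 3.60, 3.47 and 3.56 in the knockout and 3.43, 3.52 and 3.48 in the control arrays, with knockout replicate 2 inside the control range and the others just above it, and a difference of 0.07 ± 0.12 (limma adjusted p = 0.881). Its confidence interval ran from -0.21 to 0.34. These values are of the transcript, while TFEB is known to be controlled largely by its place in the cell.

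Further genes of the pathway were read from lists that exclude the members. Among 13 further measured isoforms and associated factors of the pump, 0 lay higher and 1 lower at an unadjusted p under 0.05. That was 7.69% of the list, where 5.46% of all genes were lower, and the median difference was -0.07. The lower gene was Atp6v0a2, at 5.98, 6.26 and 6.09 in the knockout and 6.56, 6.51 and 6.37 in the control arrays (-0.37 ± 0.14, limma adjusted p = 0.398). Among 30 further hydrolases 4 lay higher and 0 lower, with 23 positive and a median of 0.13. The 4 were the palmitoyl thioesterase gene Ppt1 (0.39), Hgsnat (0.35), the GM2 activator gene Gm2a (0.34) and the phospholipase gene Pla2g15 (0.32). These 4 were 13.3% of the list, where 5.06% of all genes were higher and 10.5% lay in either direction. Without knockout replicate 2 the list's median was 0.056 with 2 genes higher.

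Among 26 further membrane proteins 3 lay higher and 0 lower (11.5%, where 5.06% of all genes were higher and 10.5% lay in either direction). Their median was 0.06, and 0.0067 without knockout replicate 2. The 3 were Cd68 (0.98 ± 0.25) and Laptm5 (0.46 ± 0.14), both of leukocyte lysosomes, and Slc38a9 (0.30 ± 0.13), an amino acid sensor. Among 33 genes of sorting, autophagy and nutrient control 0 lay higher and 1 lower (3.03%, where 5.46% of all genes were lower). Their median was -0.10, and the lower gene was Lamtor3 (-0.55 ± 0.22, and -0.36 without knockout replicate 1). No gene of these 4 lists passed the limma adjusted threshold, and the counts above are those at an unadjusted p under 0.05.

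Markers of macrophages, like Ctss and Lgmn, lay higher in the knockout and were mostly highest in replicate 2. Of 20 markers, all were positive, with a median difference of 0.76, and 14 lay at an unadjusted p under 0.05, where 5.06% of all genes were higher. In 12 of the 20 (60%) all knockout arrays lay above the controls, where 7.61% of all genes did so, and the groups overlapped in the rest. Their summed linear level was 1700, 2930 and 1310 in knockout replicates 1 to 3 and 1020 to 1160 in the controls, with replicate 2 highest in 17 of 20 markers. Without knockout replicate 2 the median was 0.39 with 10 markers higher. Of the 20, only Ms4a7 stayed under the median of all probe sets on every array. The part of these cells in the value of Npc2 was likewise not tested, and in bulk tissue more cells of a type and more RNA per cell cannot be told apart.

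The markers with the highest signal were Slc40a1, C1qb, Clec4f and Cd5l. C1qb, a complement gene, measured 7.62, 8.55 and 7.06 in the knockout and 6.66 to 6.94 in the control arrays. Clec4f, a lectin gene of Kupffer cells, measured 7.23, 8.28 and 6.82 against 6.56 to 6.65, and Cd5l 7.53, 8.54 and 6.79 against 6.04 to 6.35. Slc40a1, the iron exporter gene, overlapped between groups, at 7.37 to 7.60 against 6.89 to 7.59.

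Endothelial markers were highest in knockout replicate 2 in 9 of 9 genes, with summed levels of 840, 1380 and 859 in the knockout and 797 to 816 in the control arrays. Their median difference was 0.17, and -0.054 without knockout replicate 2. In 2 of the 9 (22.2%) all knockout arrays lay above the controls, where 7.61% of all genes did so. Of these, Lyve1, named after its values were seen, measured 7.40, 7.94 and 7.44 against 6.61 to 6.76. Stellate cell and fibroblast markers summed to 751, 1480 and 793 against 678 to 837. Of these 11 genes, 2 lay higher and 1 lower without overlap, where 7.61% and 9.14% of all genes did. Dendritic cell markers summed to 475 to 604 in the knockout and 300 to 333 in the control arrays, mostly through Cd209a. Hepatocyte markers summed to 39600, 41400 and 39800 against 40200 to 42600. Of these 11 genes, 1 lay higher and 3 lower without overlap, where 7.61% and 9.14% of all genes did. Cholangiocyte markers summed to 55.7 to 66.9 against 56.3 to 60.1. Neutrophil markers summed to 73.7 to 78.6 against 64.2 to 66.6, with 7 of 10 under the median of all probe sets on every array, and lymphocyte markers to 94.9 to 96.8 against 83.2 to 91.3.

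Atp6v0d2 was about equal in the knockout arrays, and the part of macrophages in its value was not tested. Relative to the control mean Atp6v0d2 lay higher by 1.84, 1.77 and 1.87 in knockout replicates 1 to 3. The median macrophage marker lay higher by 0.62, 1.36 and 0.26. Of the 20 markers 17 were highest in replicate 2 among all 6 arrays, and the others were Lyz2, Aif1 and Ms4a7. Of 8 markers of osteoclasts, which use the d2 subunit, 2 lay higher at an unadjusted p under 0.05 (25%, against 5.06% of all genes). These were Tnfrsf11a (0.48) and Mmp9 (0.46). The list had a median difference of -0.03 and summed to 201 to 256 in the knockout and 221 to 246 in the control arrays. The 6 markers of intercalated cells of the kidney had 0 higher and 1 lower (16.7%, where 5.46% of all genes were lower). Their median was -0.0074 and their summed levels were 52.1 to 73.0 against 60.7 to 72.4. Calcr and Oscar of the first list and Slc26a4, Aqp6 and Atp6v1g3 of the second, which like Tnfrsf11a and Mmp9 were chosen after their values were seen, lay under the median of all probe sets on every array.

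Atp6v0d2 has also been listed among genes with higher expression in female than in male mouse liver. Of 24 other genes listed with this bias, 21 were positive, with a median of 0.33, and 9 lay higher and 1 lower at an unadjusted p under 0.05. Of all genes, 50.2% were positive, 5.06% higher and 5.46% lower. The brightest of them were Cyp4a14 (-0.59), Cyp17a1 (0.01), Fmo2 (0.49) and Cyp2a4 (1.34). The summed level of the list, mostly through Cyp4a14, was 6920, 6720 and 3330 in the knockout and 5410 to 7560 in the control arrays. Cyp2b9 and Slc22a26, named after their values were seen, measured 9.98, 10.1 and 6.50 and 6.90, 6.76 and 4.74 in knockout replicates 1 to 3, so replicate 3 lay far below the other knockout arrays in these genes. The list's median deviation from the control mean did not show that order, at 0.588, 0.365 and 0.386 in knockout replicates 1 to 3, and Atp6v0d2 was about equal in all of them. Of 18 genes with male bias 15 lay lower at an unadjusted p under 0.05, against 5.46% of all genes, with a median of -1.11. Their median deviation from the control mean was -1.371, -1.968 and -0.486 in knockout replicates 1 to 3, so replicate 3 lay nearest the controls. The male-biased list summed to 4220, 2940 and 11200 in the knockout and 12300 to 14200 in the control arrays. The part of either list in the value of Atp6v0d2 was not tested.

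**Figure D5:**
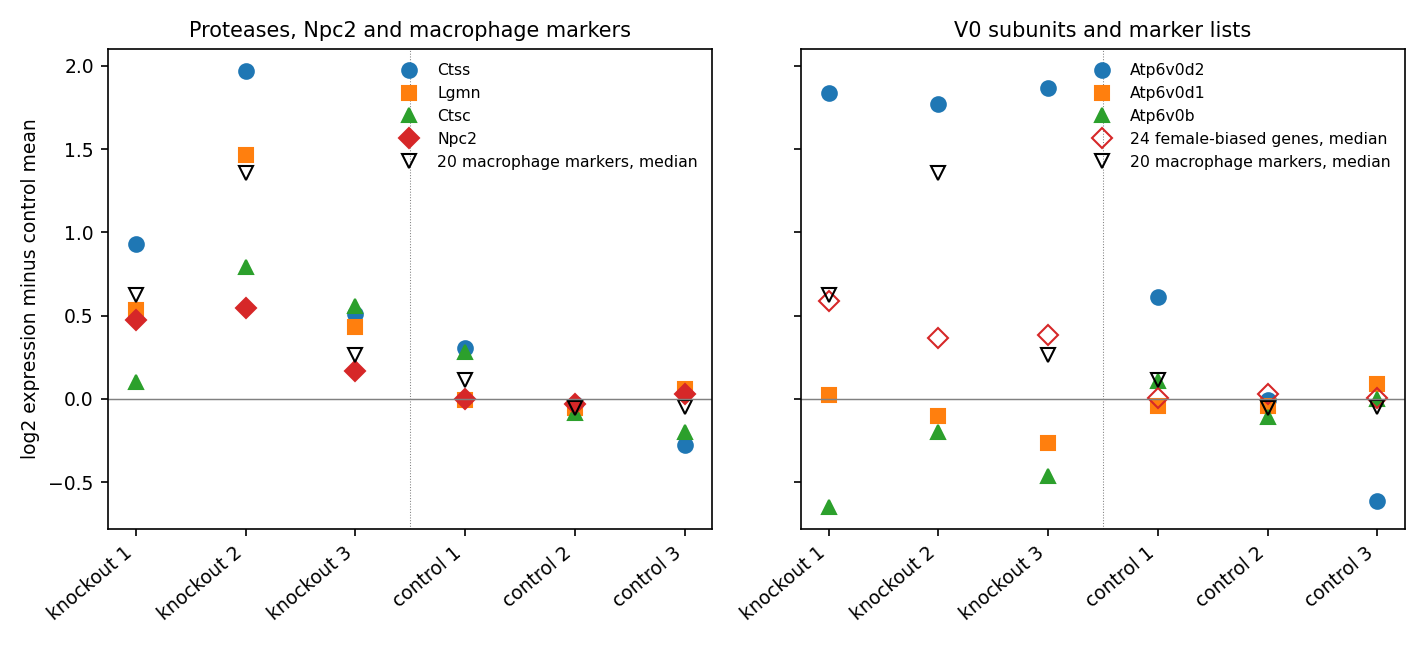
Log2 expression minus the control mean (vertical axis) in each of the 6 arrays for 4 members with the macrophage marker median (left) and for 3 subunits of the V0 sector with the medians of the macrophage and female-biased lists (right). Filled points are single genes and open points are list medians, and knockout replicate 2 is highest in Ctss, Lgmn, Ctsc, Npc2 and the macrophage median while Atp6v0d2 lies between 1.77 and 1.87 in all knockout arrays.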

How the data were processed

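Liver RNA of 6 samples was hybridised to 1 array each, and the authors deposited RMA values on the log2 scale for 41345 probe sets. The tools were RMA and version 1.4.1 of Affymetrix Expression Console, per the submitters' processing notes. Because RMA brings the arrays to a common distribution, a rise or fall of nearly all transcripts at once cannot be seen. The array type and genome build are not given in the sources used here.

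Probe sets were named with the platform annotation, in which 23521 had 1 gene symbol, 1814 had several and 16010 were absent. Of several probe sets of a gene the one with the highest mean was used, which left 22180 genes, with no filter on dim probe sets. The 2-sided comparison used limma 3.58.1 (lmFit, then eBayes; statmod 1.5.0 for the robust fit) under R 4.3.3, with Benjamini-Hochberg adjustment over all 22180 genes and a threshold of 0.05. The fit was tested on simulated data. The number of arrays limits the precision.

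The members and the gene lists were chosen with earlier results of these data known, so lists are described by counts and medians without a test. A tested gene was found for 239 of 256 list entries. Values in every array are given for Atp6v0d2, Atp6v0d1, Tfeb, members at an unadjusted p under 0.05 and the member with the smallest p of any other role. From each pathway list up to 6 genes at an unadjusted p under 0.05 are named, and from each marker list that is described gene by gene the 4 with the highest mean. Array values of Atp6v1c1, Ctsb, Lipa and Scarb2 were added after they were seen. Replicate numbers recur in both groups, but deviations of same-numbered arrays from their group means correlated at only 0.006, 0.053 and 0.015 over genes, so arrays were not paired. A dim probe set is one under the median of all probe sets (3.11). Promoter sequences are RefSeq's, of GRCm38.p6.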

Additional observations from a re-analysis of the deposited data

How the results depend on the processing

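The alternatives were a filter on dim probe sets, centring on array medians, a further quantile normalization, the mean of all probe sets of a gene, an intensity trend in the variance prior, robust empirical Bayes, array weights, a replicate block, and leaving out each array. Causes of the changes below were not tested. Genes past an adjusted p of 0.05 numbered 8 with the filter, 25 with the trend and 0 to 66 without 1 array, the highest without knockout replicate 3 (3 without control replicate 3). With the trend 1 member, Atp6v0d2, passed (1.82, adjusted p = 0.0428). Its difference was 1.52 to 2.13 and its adjusted p 0.0428 to 0.456 over 14 alternatives. With the replicate block 1 gene and 0 members passed, and 6 members lay at an unadjusted p under 0.05. Without 1 array, 4 to 8 members and 1543 to 2734 genes lay at an unadjusted p under 0.05. The median of the pump genes other than Atp6v0d2 was -0.051 after the further quantile normalization.

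The members whose direction changed had reported differences of at most 0.12 in size. Centring turned Ctsz to -0.017 and Psap to -0.0057. The further quantile normalization turned Atp6v0a1 (0.054), Atp6v0e (0.047), Atp6v1a (0.026), Atp6ap1 (0.030), Ctsf (0.024) and Gaa (0.011). The mean of probe sets turned Atp6v1b2 (-0.023) and Atp6v1g1 (0.098). Without 1 array, differences ran from -0.12 to 0.058 for Atp6v0a1, -0.095 to 0.079 for Atp6v0e, -0.040 to 0.22 for Atp6v1b2, -0.10 to 0.14 for Atp6v1f, -0.098 to 0.091 for Atp6ap1, -0.15 to 0.044 for Ctsf, -0.0083 to 0.28 for Ctsl, -0.054 to 0.044 for Ctsz, -0.14 to 0.048 for Gaa, -0.20 to 0.21 for Gla, -0.10 to 0.14 for Psap, -0.073 to 0.026 for Lamp2 and -0.15 to 0.22 for Npc1.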
